A study of Homo sapiens with 18 samples.

Results

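The integrated stress response (ISR) and amino acid genes described here are 37 genes chosen by symbol for their roles: the transcription factors ATF4, ATF3, ATF5, DDIT3, CEBPG, JDP2 and NUPR1 with the pseudokinase TRIB3, 8 effectors of the stress response, 12 enzymes of amino acid and one-carbon metabolism, 8 amino acid transporters and the tRNA exporter XPOT. All 37 symbols were found among the 40184 gene IDs of the expression table, of which 16289 were abundant enough to be tested. A gene was tested in a line when it had at least 1 CPM, a read count scaled to a common library size, in at least 3 of the 6 libraries of that line. On this rule 37 of the 37 genes were tested in Molm-14, 36 in MV4-11 (all but NUPR1) and 35 in SKNO-1 (all but NUPR1 and STC2). NUPR1 entered the Molm-14 test through its 3 treated libraries and 1 control, so its direction there was partly fixed by the filter.

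The ISR is a signalling pathway in which kinases that sense amino acid shortage, misfolded protein, viral RNA or lack of haem phosphorylate the translation factor eIF2. Phosphorylated eIF2 slows general protein synthesis but favours translation of ATF4 mRNA through its upstream open reading frames, and ATF4 protein, paired with C/EBP-family partners, switches on genes for amino acid synthesis, amino acid uptake and tRNA charging. Growth factor signalling through mTORC1 also raises ATF4 output in proliferating cells. The libraries measured mRNA, and neither ATF4 protein nor eIF2 phosphorylation was measured.

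RNA-seq was made from 3 human acute myeloid leukaemia cell lines, each treated for 24 h with 500 nM RMC-4550 or with the vehicle DMSO, in 3 replicate cultures per group and 18 libraries in all. RMC-4550 is an allosteric inhibitor of SHP2, the phosphatase encoded by PTPN11 that relays receptor tyrosine kinase signals to RAS. Molm-14 and MV4-11 carry a FLT3 internal tandem duplication (FLT3-ITD), and SKNO-1 carries the KIT N822K mutation. SKNO-1 was also supplied with GM-CSF at 10 ng/mL in both of its groups, so its KIT mutation and this growth factor cannot be told apart. Each line stands for 1 source of cells, and the labels call the replicates biological without saying how they were started, so the p-values measure the spread between these cultures. In bulk RNA a change in the mix of cells and a change in RNA per cell cannot be told apart.

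Recovered read totals ran from 17434804 to 19959907 per library, and 7 of 8 myeloid marker genes had a mean of at least 1 CPM in each line, while CD3E, CD3D and CD2 had at most 3 reads in every group. Of the 18 libraries, 14 had between 5.06% and 7.0% of reads in mitochondrial genes. The other 4 stood apart: Molm-14 RMC-4550 replicate 2 (15.0%), MV4-11 DMSO replicates 1 (12.6%) and 3 (14.6%), and MV4-11 RMC-4550 replicate 1 (10.5%). In those libraries 21 of 36 genes were lower than in the other libraries of the same group in all 3 affected groups, against 36.1% of all genes tested, and 7 were higher (ATF4, ATF5, CHAC1, DDIT3, EIF4EBP1, PPP1R15A and VEGFA), against 26.9%. The MV4-11 controls hold 2 such libraries and the treated group 1, so results in MV4-11 are given with and without them below, and the part of RNA quality in them was not tested. PSAT1, PSPH, MTHFD2, ASNS, ATF4 and SLC7A5 have near-identical pseudogene copies elsewhere in the genome, and the division of reads between the copies is uncertain.

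A short promoter element gives a sequence view of the ISR. ATF4 and a C/EBP-family partner bind the composite element TGATGNAA, which was searched on both strands in the RefSeq windows (GRCh38.p14) reaching from 250 bases before to 50 bases after each annotated start. Of the 37 genes, 28 had a window, and 10 of these 28 (35.7%) held a match, against 1217 of 27305 genes with a window (4.46%). Counted by window, 10 of 45 held a match, against 3.62% of 35116 windows. The 37 genes were chosen for their roles, so the higher share cannot be told apart from that choice. The 10 sites are shown because every one of these genes fell in Molm-14, as did most of the 37. Each is printed 5′ to 3′ along the gene's strand with the matching letters in capitals, and positions count from the start base as 1 with no position 0.
ASNS (minus strand of chr7:97872458-97872487, motif at positions -68 to -61): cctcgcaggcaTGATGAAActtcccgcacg
ATF3 (plus strand of chr1:212565205-212565234, motif at positions -191 to -184): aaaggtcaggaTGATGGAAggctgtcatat
CEBPG (plus strand of chr19:33374060-33374089, motif at positions -42 to -35): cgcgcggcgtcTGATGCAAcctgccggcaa
CHAC1 (plus strand of chr15:40953251-40953280, motif at positions -209 to -202): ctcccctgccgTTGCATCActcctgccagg
JDP2 (plus strand of chr14:75427995-75428024, motif at positions -16 to -9): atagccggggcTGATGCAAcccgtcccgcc
SLC1A4 (plus strand of chr2:64989381-64989410, motif at positions -7 to 1): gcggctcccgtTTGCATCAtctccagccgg
SLC1A5 (minus strand of chr19:46784893-46784922, motif at positions -97 to -90): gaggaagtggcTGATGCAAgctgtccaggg
SLC38A1 (minus strand of chr12:46266502-46266531, motif at positions -4 to 4): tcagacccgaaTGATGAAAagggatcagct
SLC3A2 (plus strand of chr11:62881719-62881748, motif at positions 38 to 45): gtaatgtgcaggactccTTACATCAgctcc
SLC7A1 (minus strand of chr13:29595663-29595692, motif at positions 8 to 15): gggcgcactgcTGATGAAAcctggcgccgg
The match lay on the strand opposite to the gene in CHAC1, SLC1A4 and SLC3A2 and on the gene's own strand in the other 7. Its distance from the start varied from positions -209 to -202 in CHAC1 to positions 38 to 45 in SLC3A2, and it spanned the start in SLC1A4 and SLC38A1.

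The 250 bases before the start are printed for ASNS, which holds the element in capitals, and for PSAT1, which of the 37 genes had the lowest adjusted p in each line and whose stretch has no match to these letters.
ASNS (minus strand of chr7:97872409-97872658): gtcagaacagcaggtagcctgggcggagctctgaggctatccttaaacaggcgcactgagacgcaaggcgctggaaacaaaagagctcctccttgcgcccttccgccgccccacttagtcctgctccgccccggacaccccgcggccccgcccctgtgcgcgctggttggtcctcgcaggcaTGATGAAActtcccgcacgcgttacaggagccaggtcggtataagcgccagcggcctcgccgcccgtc
PSAT1 (plus strand of chr9:78296875-78297124): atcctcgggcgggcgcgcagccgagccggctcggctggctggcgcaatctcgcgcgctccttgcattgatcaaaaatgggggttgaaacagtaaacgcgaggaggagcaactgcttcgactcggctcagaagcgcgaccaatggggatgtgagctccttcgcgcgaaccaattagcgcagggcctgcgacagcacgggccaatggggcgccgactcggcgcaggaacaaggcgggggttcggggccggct
Genes were then counted by whether they held a match. In Molm-14 10 of 10 genes with the element were called lower, with a median log2 change of -0.69, and 12 of 18 with a window and no element were, with a median of -0.66. Over all genes tested in Molm-14 that had a window, 101 of 270 with the element (37.4%) and 2720 of 9660 without it (28.2%) were called lower. In MV4-11 2 of 10 listed genes with the element were called lower (CHAC1 and SLC3A2) and 3 of 18 without it, against 12.1% and 8.93% of all genes with and without it. In SKNO-1 2 of 10 with the element were (SLC3A2 and SLC7A1) and 4 of 17 without it, against 20% and 18.4%, so the share with the element was at that of all genes. A match describes letters in the window only, and binding was not measured. ALDH1L2, EIF4EBP1, GPT2, NUPR1, PSPH, PYCR1, SHMT2, SLC7A11 and VEGFA were not searched.

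In Molm-14 most of the 37 genes fell with RMC-4550. A gene was called when its adjusted p was under 0.05 (limma, Benjamini-Hochberg over all genes tested in the line). Unless another fit is named, calls come from the fit over all 18 libraries without adjustment or weights. On this rule 29 of 37 were called lower, against 25.1% of the 14020 genes tested. A further 3 were called higher (ATF4, NUPR1 and VEGFA), against 21.5%. The median log2 change of the 37 genes was -0.70, against -0.06 over all genes, and 31 of 37 changes were below 0, against 53.6% of genes. By role, the fall took in all 6 serine and one-carbon enzymes, all 6 other enzymes, all 8 transporters and XPOT, but 4 of 8 among the factors with TRIB3 and 4 of 8 among the effectors. All controls lay above all treated libraries for 30 genes, against 33.0% of genes, and below them for 4, against 26.9%. Without replicate 2 of the treated group, the library with 15.0% mitochondrial reads, the median was -0.53, and a fit that left out all 4 such libraries called 29 genes lower, against 32.0% of genes, and 4 higher, against 26.6%. Adjusting for the mitochondrial share by a covariate gave 30 lower, against 30.1%, and 3 higher, against 27.2%.

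In MV4-11 the changes were smaller. There 7 of 36 genes were called lower, against 8.03% of the 14739 genes tested, and 1 was called higher (ATF5), against 5.85%. The median was -0.18, against -0.01 over all genes. Controls lay above all treated libraries for 11 genes, against 13.5%, and below them for 2, against 11.1%. The 7 called lower were CHAC1, PHGDH, PSAT1, ALDH18A1, GPT2, SLC7A11 and SLC3A2. This count rested on how the high-mitochondrial libraries were treated. After adjustment for the mitochondrial share by a covariate, 25 of 36 were called lower, against 22.2% of genes, and 2 higher, against 12.1%. Without those libraries 21 were called lower, against 19.6%, and 2 higher, against 8.83%, in a fit where the single remaining control was taken to vary like the other groups. Within the libraries under 10% (1 control, 2 treated) 30 of 36 genes were lower, with a median of -0.32, and within those over 10% (2 controls, 1 treated) 28 were, with a median of -0.17, and 26 were lower in both. With limma's array quality weights 12 were called lower, against 25.2% of genes, and 13 higher, against 27.7%, and 13 genes had the opposite sign. Over all the fits run, 9 genes were called in both directions in MV4-11 (DDIT4, PYCR1, SESN2, SHMT2, SLC1A4, SLC38A2, SLC7A1, TRIB3 and XPOT), none of which is among the 8 called first. Opposite signs, calls in both directions and falls within the libraries under or over 10% were not counted over all genes. No share therefore stands beside them. The changes under 10% rest on 1 control.

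In SKNO-1 the listed genes as a set lay close to all genes, with calls in each direction. There 8 of 35 were called lower (PHGDH, PSAT1, PYCR1, ALDH18A1, GPT2, SLC7A5, SLC3A2 and SLC7A1), against 16.2% of the 14690 genes tested, and 3 were called higher (ATF5, TRIB3 and VEGFA), against 10.8%. The median of -0.05 equalled that of all genes, and 19 of 35 changes were below 0, against 54.6% of genes. Controls lay above all treated libraries for 15 genes, against 35.4%, and below them for 6, against 26.6%. No SKNO-1 library exceeded 10% mitochondrial reads, but a fit without the 4 libraries of the other lines, which narrows the shared estimate of spread, called 13 lower and 7 higher, against 32.0% and 21.2% of genes. Without replicate 2 of DMSO the count lower was 5 of 35, against 12.2% of genes.

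**Figure D1:**
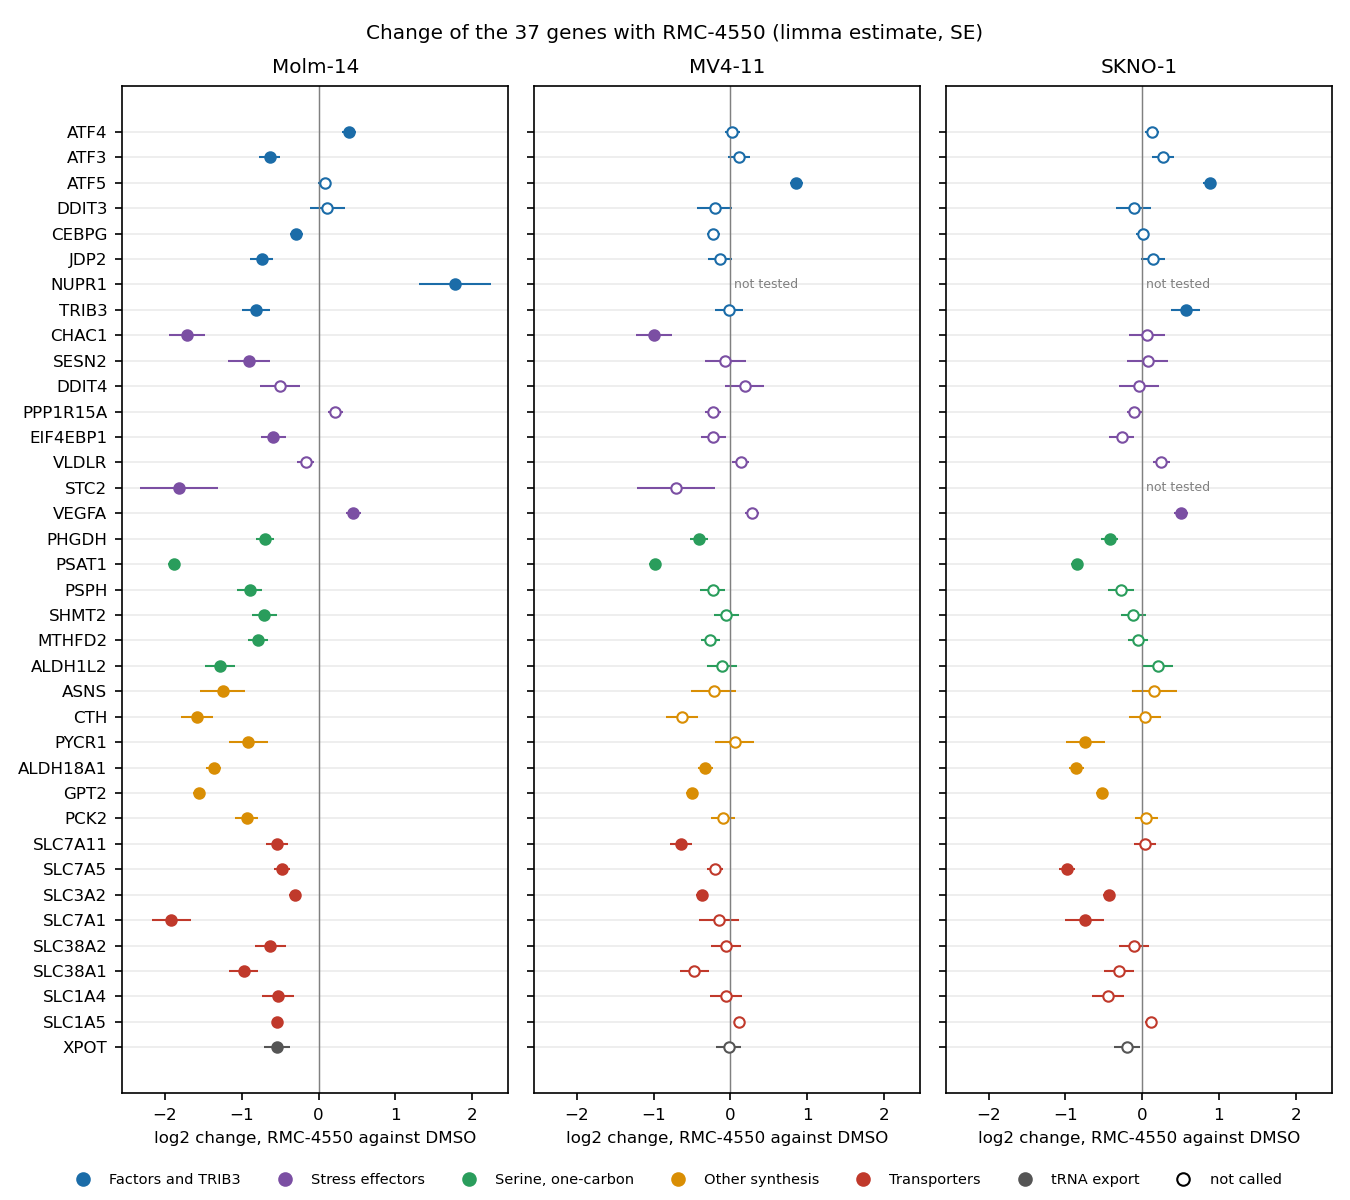
Log2 change (RMC-4550 minus DMSO) of the 37 genes in each line, with points for the limma estimate, bars for its SE, filled points for genes called at an adjusted p under 0.05, open points for genes that were not, and colours for roles. In Molm-14 29 filled points lie left of 0, against 7 in MV4-11 and 8 in SKNO-1.

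**Figure D2:**
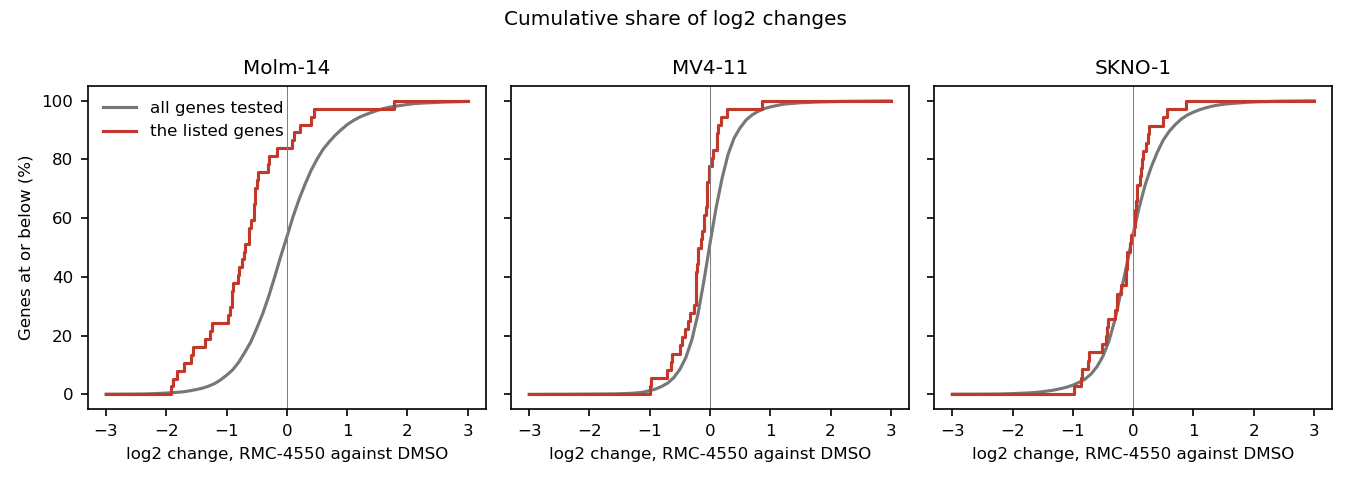
Cumulative share (%) of log2 changes at or below the value on the x axis, for the listed genes (red steps) and for all genes tested (grey), by line. The red curve lies to the left of the grey one in Molm-14, where the medians are -0.70 and -0.06, and meets it near 0 in SKNO-1, where both medians are -0.05.

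ATF4 itself, the central factor of the response, did not fall in any line. In Molm-14 it measured 745, 743 and 747 CPM with DMSO and 917, 1080.2 and 948 CPM with RMC-4550. The groups did not overlap, and ATF4 rose by a log2 change of 0.39 ± 0.09 (SE, n = 3 and 3, limma adjusted p = 0.0029). In MV4-11 it measured 669, 595 and 743 CPM with DMSO and 744, 618 and 679.6 CPM with RMC-4550, which overlap, and the change of 0.03 was not called (adjusted p = 0.90). In SKNO-1 it measured 477, 483 and 497 CPM with DMSO and 519.6, 541 and 532 CPM with RMC-4550, which do not overlap, but the change of 0.13 was not called (adjusted p = 0.35). The treated Molm-14 library with the highest ATF4 is the one with 15.0% mitochondrial reads, and without it the ATF4 change was 0.32. ATF4 mRNA was therefore called higher in the same Molm-14 libraries in which 29 other genes of the list were called lower.

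ATF5, a related factor whose mRNA is also translated under eIF2 phosphorylation, showed the reverse pattern across lines. In Molm-14 it was low, at 62.0, 61.6 and 62.3 CPM with DMSO and 65.8, 69.5 and 61.3 CPM with RMC-4550, and the overlapping groups gave a change of 0.08 (adjusted p = 0.47). In MV4-11 it went from 577, 509 and 655 CPM to 1111, 1003 and 1033 CPM. In SKNO-1 it went from 625, 615 and 652 CPM to 1117, 1204 and 1166 CPM. In both of these lines every treated library lay above every control, and ATF5 rose by 0.86 ± 0.09 in MV4-11 (limma adjusted p = 7.1e-06) and 0.88 ± 0.09 for SKNO-1 (1.8e-06). The response differed between Molm-14 and MV4-11 by -0.78 (adjusted p = 0.00071) and between SKNO-1 and Molm-14 by 0.80 (adjusted p = 0.00059). The rise in MV4-11 was 1.00 within the libraries under 10% mitochondrial reads and 0.85 within those over it.

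DDIT3, which encodes the pro-apoptotic factor CHOP, was not called in any line. In Molm-14 it measured 59.1, 60.9 and 53.5 CPM with DMSO and 50.8, 93.4 and 51.2 CPM with RMC-4550. The single high value of 93.4 is again the library with 15.0% mitochondrial reads, and the other 2 treated libraries lay below all 3 controls. The change of 0.11 (limma adjusted p = 0.71) became -0.18 without that library (adjusted p = 0.51) and -0.20 after adjustment for the mitochondrial share, where it was called lower (adjusted p = 0.016). In MV4-11 DDIT3 measured 56.4, 34.1 and 63.0 CPM with DMSO and 53.1, 36.3 and 41.3 CPM with RMC-4550, which overlap. The 3 libraries above 50 CPM are the 3 with over 10% mitochondrial reads. With array quality weights DDIT3 was called lower in MV4-11 (-0.51, limma adjusted p = 0.00055). The covariate fit gave 0.12 there, which was not called (0.19). In SKNO-1 it measured 30.2, 27.0 and 29.4 CPM with DMSO and 26.6, 25.4 and 28.2 CPM with RMC-4550, which also overlap.

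TRIB3 is a pseudokinase that ATF4 and CHOP induce and that feeds back on them. It was the only gene of the list called in opposite directions in the fit without adjustment or weights. In Molm-14 it fell from 228, 229.9 and 244 CPM to 164, 93.1 and 153 CPM, a change of -0.82 ± 0.19 (limma adjusted p = 0.0021). In SKNO-1 it rose from 49.4, 56.5 and 58.1 CPM to 75.2, 88.2 and 79.4 CPM, a change of 0.57 ± 0.19 (adjusted p = 0.033), and in neither line did the groups overlap. The difference between those responses was 1.38 (adjusted p = 0.0029). In MV4-11 the values of 87.1, 121 and 85.4 CPM with DMSO and 78.5, 99.6 and 111 CPM with RMC-4550 overlapped, with a change of -0.02 (adjusted p = 0.97). Of the 12811 genes tested in all 3 lines, 1.20% were called higher in one and lower in another. Leaving out any one SKNO-1 library raised the adjusted p of the SKNO-1 rise to between 0.053 and 0.12, with the change between 0.49 and 0.62. In the covariate fit ALDH1L2 and ATF3 were also called lower in Molm-14 (-1.02 and -0.51) and higher in SKNO-1 (0.24 and 0.29).

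ATF3, JDP2 and CEBPG, of the other factors, were called in Molm-14 alone, and NUPR1 was tested there alone. ATF3, a stress-induced repressor, fell by 0.64 on the log2 scale (limma adjusted p = 0.0015), from 31.4 ± 0.932 to 20.3 ± 2.96 CPM (mean ± SD, n = 3). JDP2, an ATF3-related repressor, also fell (-0.74), as did CEBPG, a C/EBP partner of ATF4 (-0.29). NUPR1, a small chromatin protein induced by stress, rose from 0.445, 0.750 and 1.56 CPM to 2.24, 3.84 and 2.66 CPM, which is close to the detection limit. In MV4-11 and SKNO-1 the changes of ATF3, JDP2 and CEBPG ran from -0.22 to 0.27 and none was called. The MV4-11 CEBPG groups did not overlap (-0.22, limma adjusted p = 0.090), and its response was not called different from that in Molm-14 (0.69). In the covariate fit ATF3 was called higher in SKNO-1 (0.29, 0.024) and JDP2 lower in MV4-11 (-0.29, 0.039). With array quality weights CEBPG was called lower in MV4-11 (-0.29), and ATF3 (0.32) and JDP2 (0.18) higher in SKNO-1. The responses of ATF3 (by 0.91) and JDP2 (by 0.89) were higher in SKNO-1 than in Molm-14 (limma adjusted p = 0.0071 and 0.014). The ATF3 response was also lower in Molm-14 than in MV4-11, by -0.75 (adjusted p = 0.016).

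**Figure D3:**
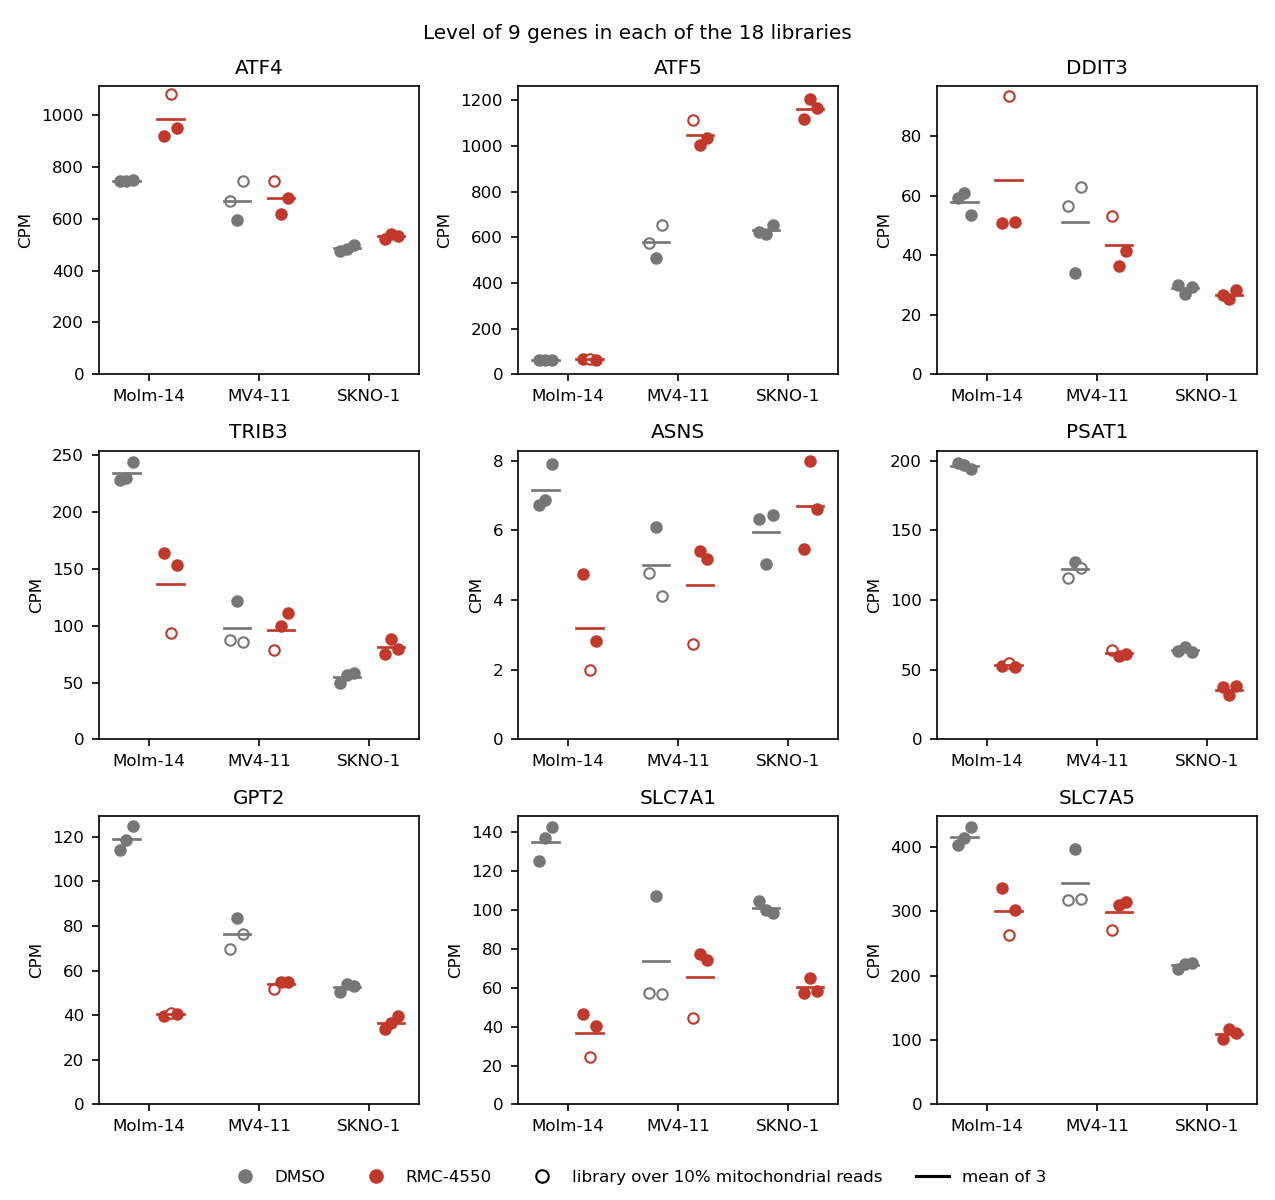
Level in CPM (linear y axis from 0) of 9 genes in each of the 18 libraries, with DMSO in grey, RMC-4550 in red, open circles for libraries with over 10% mitochondrial reads and bars for the mean of 3. ATF5 separates by treatment in MV4-11 and SKNO-1 and stays between 61.3 and 69.5 CPM in Molm-14, PSAT1 separates in all 3 lines, and the open circles are the lowest treated values of TRIB3, ASNS, SLC7A1 and SLC7A5 in Molm-14.

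Among the effectors, CHAC1 and STC2 had the largest falls. CHAC1 is an enzyme that degrades glutathione. In Molm-14 it fell from 7.28, 7.96 and 9.30 CPM to 2.40, 2.56 and 2.43 CPM, a log2 change of -1.71 ± 0.23 (limma adjusted p = 2.8e-05). In MV4-11 it fell from 8.02, 5.78 and 9.22 CPM to 4.96, 2.63 and 4.11 CPM, a change of -0.99 ± 0.23 (adjusted p = 0.0093), and in both lines the groups did not overlap. In SKNO-1 it measured 2.81, 2.94 and 3.96 CPM with DMSO and 3.01, 4.18 and 2.94 CPM with RMC-4550, which overlap (change 0.06, adjusted p = 0.89). The response was higher in SKNO-1 than in Molm-14 by 1.77 (adjusted p = 0.0025). Leaving out DMSO replicate 3 (adjusted p = 0.052) or RMC-4550 replicate 2 (0.055) ended the MV4-11 call.

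STC2, a secreted glycoprotein that limits calcium entry, fell in Molm-14 from 15.4, 15.2 and 14.9 CPM to 4.92, 3.84 and 4.13 CPM, a change of -1.82 ± 0.51 (limma adjusted p = 0.0085). In MV4-11 it measured 5.33, 5.83 and 4.07 CPM with DMSO and 3.91, 2.58 and 2.84 CPM with RMC-4550. Those groups did not overlap, but the change of -0.71 was not called (adjusted p = 0.42), and its SE includes the scatter of SKNO-1, where STC2 was at most 0.509 CPM in every library. With log2(CPM + 1) the MV4-11 change of -0.57 was called (adjusted p = 0.019).

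In Molm-14 SESN2, an mTORC1 inhibitor that senses leucine, fell (-0.91), as did EIF4EBP1, a brake on cap-dependent translation (-0.59), and neither was called in another line. In MV4-11 SESN2 was called lower in the covariate fit (-0.44, limma adjusted p = 0.00025) and higher with array quality weights (0.40, 0.0080). EIF4EBP1 was called lower in SKNO-1 in the covariate fit (-0.29, 0.0022). Array quality weights called it lower in MV4-11 (-0.45) and SKNO-1 (-0.25). The treated Molm-14 library with 15.0% mitochondrial reads had the lowest SESN2 of its group, 30.9 CPM against 64.0 and 56.3 CPM in the other 2. Without it alone the change was -0.59 and was not called (limma adjusted p = 0.069), while the fit without all 4 libraries over 10% gave the same -0.59 and called it (1.3e-05), as did the covariate fit (-0.54, 8.9e-06). DDIT4, a second mTORC1 inhibitor, was not called in any line and had the same library apart, at 169.9 CPM against 389 and 327 CPM in the other 2. The covariate fit called DDIT4 lower in MV4-11 (-0.18). With array quality weights it was called higher in MV4-11 (0.57) and lower in Molm-14 (-0.23). PPP1R15A, the eIF2 phosphatase subunit that ends the response, was not called in any line either, with changes of 0.22 for Molm-14, -0.22 for MV4-11 and -0.10 for SKNO-1. Its response nevertheless differed between Molm-14 and MV4-11 by 0.44 (adjusted p = 0.037). With array quality weights PPP1R15A was called higher in Molm-14 (0.14) and lower in MV4-11 (-0.32). VLDLR, a lipoprotein receptor, had changes of -0.17, 0.14 and 0.25 and no call. Its Molm-14 and SKNO-1 groups did not overlap, and the covariate fit called it higher in SKNO-1 (0.26, limma adjusted p = 0.0062). With array quality weights VLDLR was called higher in MV4-11 (0.29) and SKNO-1 (0.25). VEGFA, the angiogenic growth factor that hypoxia also induces, rose by 0.45 in Molm-14 (adjusted p = 0.00091) and by 0.50 in SKNO-1 (0.00073). Its MV4-11 change of 0.28 was not called (adjusted p = 0.058), although the groups did not overlap. The covariate fit (0.37, limma adjusted p = 1.4e-05) and array quality weights (0.17, 0.017) called it higher there.

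The first steps of serine synthesis fell in every line. PHGDH and PSAT1, the first and second enzymes of the pathway, were among the 5 genes on the list called lower in all 3 lines, with ALDH18A1, GPT2 and SLC3A2. These are 5 of the 35 tested in all lines, against 5.79% of the 12811 genes tested in all lines, and none was called higher in all 3, against 3.11%. PSAT1 went from 199, 197 and 194 CPM to 52.6, 54.8 and 52.3 CPM in Molm-14. It went from 116, 127 and 123 CPM to 64.0, 59.8 and 61.1 CPM in MV4-11, and from 63.7, 66.0 and 63.0 CPM to 37.8, 31.5 and 38.1 CPM in SKNO-1. The groups were far apart in each line, and the PSAT1 changes were -1.88 ± 0.08 in Molm-14 (limma adjusted p = 1.8e-10), -0.98 ± 0.08 for MV4-11 (3.8e-07) and -0.85 ± 0.08 for SKNO-1 (6.6e-07). The Molm-14 fall exceeded the MV4-11 fall by a difference of -0.90 (adjusted p = 8.1e-05), and the SKNO-1 response was higher than the Molm-14 response by 1.03 (adjusted p = 2.1e-05). The MV4-11 change of PSAT1 was -1.07 within libraries under 10% and -0.90 within those over it.

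PHGDH had smaller changes. It fell from 232, 245 and 248 CPM to 176, 123 and 152 CPM in Molm-14, a change of -0.70 ± 0.11 (limma adjusted p = 0.00015). It fell from 120.5, 141 and 123 CPM to 85.6, 102 and 103 CPM in MV4-11, a change of -0.41 ± 0.11 (adjusted p = 0.026). It fell from 82.1, 94.5 and 92.5 CPM to 63.2, 69.0 and 68.2 CPM in SKNO-1, a change of -0.42 ± 0.11 (adjusted p = 0.012). No control overlapped a treated library in any line, and the 3 responses were not called different from each other. The call was lost in MV4-11 without DMSO replicate 2, without DMSO replicate 3 or without RMC-4550 replicate 1 (adjusted p between 0.050 and 0.089), and in SKNO-1 without DMSO replicate 2 (0.054).

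The rest of the serine and one-carbon enzymes fell in Molm-14 alone by call. The changes there were -0.89 for PSPH, the last serine enzyme, and -0.70 for SHMT2, which takes the one-carbon unit from serine in mitochondria. They were -0.79 for MTHFD2, which oxidizes that unit, and -1.28 for ALDH1L2, which releases it as carbon dioxide. In MV4-11 their changes ran from -0.26 to -0.05 and in SKNO-1 from -0.27 to 0.21, with no call. The SKNO-1 groups of PSPH and ALDH1L2 did not overlap. There the covariate fit called ALDH1L2 higher (0.24, limma adjusted p = 0.0025). Array quality weights called ALDH1L2 higher (0.21) and PSPH lower (-0.23) in SKNO-1. In MV4-11 all 6 genes of the group were called lower after adjustment for the mitochondrial share, against 22.2% of genes, with a group median of -0.41 in place of -0.25. With array quality weights SHMT2 was called higher there (0.21, limma adjusted p = 0.029), and ALDH1L2 (0.16) and PSPH (0.00066) had positive changes that were not called. ALDH1L2 differed between lines, with a response lower in Molm-14 than in MV4-11 by -1.18 (limma adjusted p = 0.010) and higher in SKNO-1 than in Molm-14 by 1.49 (0.0025).

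ASNS, asparagine synthetase and the textbook ATF4 target, changed in Molm-14 alone by call and was low throughout. It went from 6.72, 6.86 and 7.91 CPM to 4.76, 1.99 and 2.83 CPM in Molm-14, a change of -1.25 ± 0.29 (limma adjusted p = 0.0025), and the groups did not overlap. In MV4-11 it measured 4.79, 6.09 and 4.13 CPM with DMSO and 2.75, 5.42 and 5.18 CPM with RMC-4550, and in SKNO-1 6.32, 5.05 and 6.45 CPM and 5.46, 7.98 and 6.62 CPM. Both pairs overlapped, with changes of -0.21 (adjusted p = 0.70) and 0.16 (0.73). The response was higher in SKNO-1 than in Molm-14 by 1.41 (adjusted p = 0.039). Its difference between Molm-14 and MV4-11, -1.03, was not called (0.086). The MV4-11 change was -0.20 within the libraries under 10% mitochondrial reads and -0.69 within those over it. In the covariate fit ASNS was called lower in MV4-11 (-0.54, 0.038). With array quality weights the MV4-11 change was 0.13 and was not called (0.61). The lowest value of each treated FLT3-ITD group, 1.99 and 2.75 CPM, came from its library with over 10% mitochondrial reads, and without those libraries the Molm-14 change was -0.96 (adjusted p = 0.0007).

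ALDH18A1, which makes the proline and ornithine precursor from glutamate, fell in all 3 lines. It went from 114, 116 and 118 CPM to 47.9, 41.8 and 45.7 CPM in Molm-14, a change of -1.36 ± 0.10 (limma adjusted p = 4.9e-08). It went from 76.1, 101 and 77.1 CPM to 62.7, 68.9 and 69.7 CPM in MV4-11, a change of -0.33 ± 0.10 (adjusted p = 0.038), and from 95.7, 105 and 106 CPM to 56.1, 54.2 and 58.6 CPM in SKNO-1, a change of -0.86 ± 0.10 (adjusted p = 9.5e-06). The groups did not overlap in any line. MV4-11 DMSO replicate 2, at 101 CPM, stood above the other controls there, and without it the change was -0.19 (adjusted p = 0.096); the call was also lost without any one of the treated MV4-11 libraries (0.073 to 0.10). PYCR1, the last step of proline synthesis, fell in Molm-14 (-0.92, adjusted p = 0.0076) and in SKNO-1 (-0.74, 0.041). Its SKNO-1 call was lost without any one library of that line, with adjusted p between 0.066 and 0.11.

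GPT2, mitochondrial alanine transaminase, had some of the tightest values on the list. It went from 114, 118 and 125 CPM to 39.8, 41.1 and 40.4 CPM in Molm-14, from 69.6, 83.5 and 76.4 CPM to 51.8, 54.8 and 54.9 CPM in MV4-11, and from 50.3, 53.8 and 53.3 CPM to 33.9, 36.4 and 39.4 CPM in SKNO-1. No groups overlapped, and the GPT2 changes were -1.56 ± 0.08 (limma adjusted p = 1.6e-09), -0.50 ± 0.08 (0.00046) and -0.52 ± 0.08 (0.00015) in the same order. The fall was larger in Molm-14 than in MV4-11, by a difference of -1.05 (adjusted p = 3.8e-05), and than in SKNO-1, by 1.03 (3.1e-05). In Molm-14 CTH, which makes cysteine from cystathionine, also fell (-1.58, adjusted p = 2.2e-05), as did PCK2, mitochondrial PEP carboxykinase (-0.94, 0.00015). The CTH change of -0.63 in MV4-11 was not called (0.061), and the SKNO-1 change was 0.04. The MV4-11 PCK2 change was -0.10, and the SKNO-1 change was 0.06. In the covariate fit all 6 enzymes outside the serine and one-carbon group were called lower in MV4-11, against 22.2% of genes. There CTH changed by -0.88 and PCK2 by -0.31. With array quality weights CTH was called lower in MV4-11 (-0.38), PYCR1 was called higher (0.40) and PCK2 (0.12) was not called.

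All 8 transporters fell in Molm-14, with log2 changes from -1.92 to -0.31. SLC7A1, which imports cationic amino acids such as arginine, fell most: from 125, 137 and 142 CPM to 46.4, 24.1 and 40.1 CPM, a change of -1.92 ± 0.26 (limma adjusted p = 2.2e-05). Its SKNO-1 levels fell from 105, 100.1 and 98.4 CPM to 57.5, 65.2 and 58.2 CPM, a change of -0.75 ± 0.26 (adjusted p = 0.041), and the groups did not overlap in either line. In MV4-11 it measured 57.1, 107 and 57.0 CPM with DMSO and 44.5, 77.4 and 74.4 CPM with RMC-4550. Those groups overlapped, the lower controls and the lowest treated library are those with over 10% mitochondrial reads, and the change of -0.15 (adjusted p = 0.77) became -0.50 after adjustment for the mitochondrial share (0.00013) and 0.33 with array quality weights (0.019), so the called direction depended on the fit. The response was lower in Molm-14 than in MV4-11 by -1.77 (adjusted p = 0.0042) and higher in SKNO-1 than in Molm-14 by 1.17 (0.049). The SKNO-1 call was lost without any one library of that line (0.071 to 0.11).

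SLC7A5 and SLC3A2 encode the light and heavy chains of the leucine transporter LAT1-4F2hc. SLC7A5 fell from 403, 414 and 432 CPM to 337, 263 and 303 CPM in Molm-14, a change of -0.48 ± 0.11 (limma adjusted p = 0.0017). The SKNO-1 levels fell from 210.0, 219 and 220.5 CPM to 101, 118 and 112 CPM, a change of -0.98 ± 0.11 (adjusted p = 4.5e-06). It was the only gene on the list with a response called lower in SKNO-1 than in each other line, by -0.50 against Molm-14 (adjusted p = 0.041) and -0.77 against MV4-11 (0.010). In MV4-11 it measured 317, 397 and 319.9 CPM with DMSO and 272, 309.6 and 314 CPM with RMC-4550, which did not overlap, and the change of -0.20 was not called (adjusted p = 0.24).

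SLC3A2 fell in all 3 lines. It went from 224, 227 and 243 CPM to 191, 183 and 186 CPM in Molm-14, from 181, 176 and 179 CPM to 136, 137 and 141 CPM in MV4-11, and from 123, 133 and 138 CPM to 88.3, 106 and 98.2 CPM in SKNO-1. Controls and treated libraries did not overlap. The changes were -0.31, -0.37 and -0.43, each with an SE of 0.07 (limma adjusted p = 0.0029, 0.0030 and 0.00045). None of the 3 differences between those responses was called. Differences of up to 0.12 were estimated with an SE of 0.11.

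SLC7A11, the cystine importer, fell in Molm-14 (-0.54) and in MV4-11 (-0.64, limma adjusted p = 0.0053 and 0.0063), and its SKNO-1 change was 0.04. In MV4-11 the change was -1.01 within the libraries under 10% mitochondrial reads and -0.44 within those over it. The neutral amino acid carriers SLC38A1 and SLC38A2 (-0.98 and -0.63), SLC1A4 (-0.53) and the glutamine carrier SLC1A5 (-0.54) fell in Molm-14. In MV4-11 their changes ran from -0.47 to 0.12 and in SKNO-1 from -0.44 to 0.12, with no call. SLC1A5 was the one transporter with a positive change in both, 0.12 in each, and its response was lower in Molm-14 than in MV4-11 by -0.65 (adjusted p = 0.00099). In the covariate fit 7 of the 8 transporters were called lower in MV4-11, against 22.2% of genes, and 5 in SKNO-1, against 29.5%. With array quality weights SLC1A4 (0.28), SLC38A2 (0.22) and SLC1A5 (0.22) were called higher in MV4-11. XPOT, which carries tRNA out of the nucleus, fell in Molm-14 (-0.54, adjusted p = 0.014) and was not called in the other lines. The covariate fit called XPOT lower in MV4-11 (-0.25) and SKNO-1 (-0.17). Array quality weights called it higher in MV4-11 (0.21) and lower in SKNO-1 (-0.20). The Molm-14 calls of SLC1A4, SLC38A2 and XPOT were lost without treated replicate 2, with changes of -0.26, -0.39 and -0.34 (adjusted p = 0.26, 0.091 and 0.077), and SLC1A4 also lost its call without any one control. The fit without all 4 libraries over 10% gave the same 3 changes and called them (adjusted p = 0.00052, 0.00015 and 4.6e-05), and the covariate fit called them too.

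**Figure D4:**
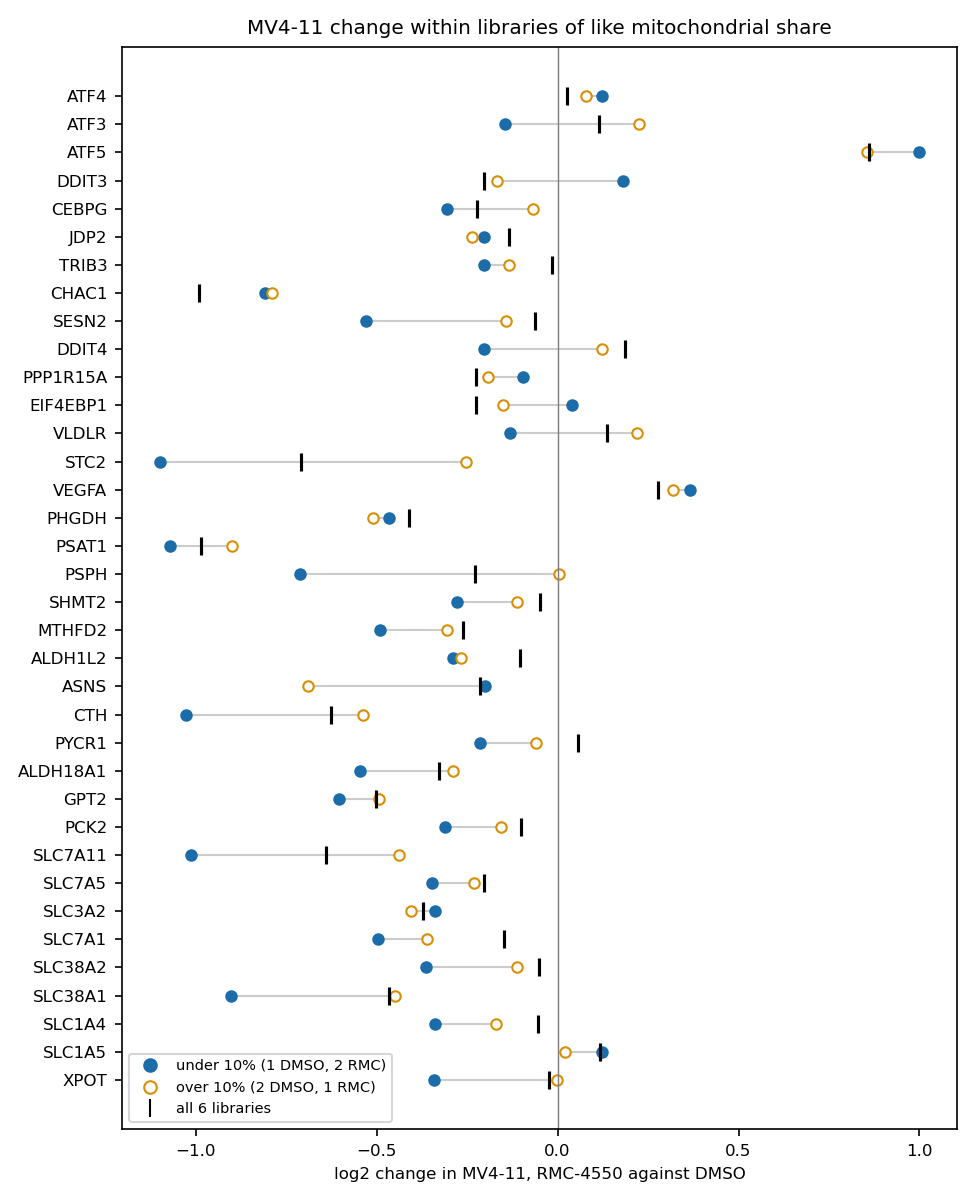
Log2 change in MV4-11 (RMC-4550 minus DMSO) of 36 genes within libraries under 10% mitochondrial reads (blue), within libraries over 10% (open orange) and over all 6 libraries (black bars). For many genes the change within both sets is lower than the change over all 6, and 26 genes are below 0 in both sets. Neither was counted over all genes.

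The responses of the 3 lines were then compared directly. Between Molm-14 and MV4-11 13 of 36 genes were called different, against 19.4% of the 13482 genes tested: 12 were lower in Molm-14, against 9.11%, and PPP1R15A was higher, against 10.3%. Between SKNO-1 and Molm-14 16 of 35 were, against 10.9% of 12905 genes: 15 were higher in SKNO-1, against 4.13%, and SLC7A5 was lower, against 6.74%. Between SKNO-1 and MV4-11 only SLC7A5 was, 1 of 35, against 1.65% of 13901 genes. It was lower in SKNO-1, as were 1.17% of genes, and 0.482% were higher. Leaving out MV4-11 DMSO replicate 1 lowered the Molm-14 and MV4-11 count to 8, against 10.4% of genes, and leaving out DMSO replicate 2 raised it to 27, against 43.9%. The latter also raised the SKNO-1 and MV4-11 count to 3, against 6.31%, and leaving out MV4-11 DMSO replicate 3 raised it to 2, against 1.20%. In the covariate fit the counts were 12, 26 and 10 in the same order, against 22.2%, 28.6% and 9.27% of genes. Without the libraries over 10% mitochondrial reads they were 10, 27 and 9, against 17.6%, 30.1% and 6.18%.

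Control levels differed between the lines too. With DMSO, 33 of the 37 genes were highest in Molm-14, where 39.6% of all genes had their highest mean, and 28 were lowest in SKNO-1 (37.7% of genes). The 4 exceptions, ATF5, EIF4EBP1, PPP1R15A and SLC1A5, were lowest in Molm-14. ATF5 was at 62.0 ± 0.318 CPM (SD, n = 3) there, against 581 ± 73.1 in MV4-11 and 631 ± 19.2 in SKNO-1. These levels are given as a description of the lines.

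Further genes of the pathway were read from lists of eIF2 kinases and eIF2 machinery, the endoplasmic reticulum unfolded protein response, cytosolic tRNA synthetases and other amino acid genes. Of the 20 tRNA synthetases, which charge tRNAs with amino acids, 17 were called lower in Molm-14, with 6 for MV4-11 and 10 for SKNO-1, against the 25.1%, 8.03% and 16.2% of all genes. WARS1, the tryptophan enzyme that interferon also induces, was the only one called higher, in MV4-11 and SKNO-1. FARSB, a subunit of the phenylalanine enzyme, fell in Molm-14 (-1.27) and SKNO-1 (-0.82), and so did VARS1 (-1.27 and -0.81) and GARS1 (-1.19 and -0.45), the valine and glycine enzymes. YARS1, MARS1 and RARS1, for tyrosine, methionine and arginine, fell in all 3 lines. Their changes were -0.83, -0.73 and -0.56 in Molm-14, -0.31, -0.46 and -0.38 for MV4-11, while SKNO-1 had -0.63, -0.41 and -0.58.

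Of 17 genes for eIF2 kinases and their machinery, 9 were called lower in Molm-14, with 1 for MV4-11 and 4 for SKNO-1, against 25.1%, 8.03% and 16.2% of all genes. In the same order 0, 1 and 2 were called higher, against 21.5%, 5.85% and 10.8%. EIF2AK2, the double-stranded RNA sensor PKR, rose in MV4-11 from 26.9 ± 6.55 to 116 ± 21.8 CPM (limma adjusted p = 4.6e-07) and for SKNO-1 from 31.9 ± 0.630 to 66.9 ± 4.45 CPM (0.00019), while its Molm-14 change was 0.07 (0.73). EIF2S1, the phosphorylated eIF2 subunit, fell in Molm-14 (-0.95) and in SKNO-1 (-0.76). EIF2B3, a subunit of the exchange factor that phosphorylated eIF2 blocks, fell in the same lines (-1.59 and -0.75).

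Of 22 genes of the unfolded protein response, 12 were called lower in Molm-14, with 3 for MV4-11 and 3 for SKNO-1, against the same 25.1%, 8.03% and 16.2%. The SKNO-1 share was below that of all genes, and ERO1B, an oxidase of disulfide formation, was the 1 gene called higher, in Molm-14 and SKNO-1. DNAJB11, a chaperone of the endoplasmic reticulum, was the 1 gene called lower in all 3 lines (-0.59, -0.36 and -0.34). XBP1, the factor spliced by IRE1, fell in Molm-14 (-1.15) and had changes of 0.27 in MV4-11 and -0.38 in SKNO-1 with no call. The chaperones HYOU1 and PDIA6 fell in Molm-14 (-1.39 and -1.26), with treated SDs of 44.9 and 57.0 CPM around means of 81.7 and 97.4 CPM. Of the other amino acid genes, 16 of 36 were called lower and 5 higher in Molm-14, with 7 of 36 and 5 for MV4-11 and 13 of 35 and 6 for SKNO-1. The shares of all genes were 25.1% and 21.5%, 8.03% and 5.85%, and 16.2% and 10.8%, so the share called higher in Molm-14 was below that of all genes. HMOX1, haem oxygenase, and SLC43A2, a neutral amino acid carrier, rose in all 3 lines, HMOX1 by 2.24, 1.37 and 1.23 and SLC43A2 by 2.16, 0.67 and 0.81. MTHFD1, the cytosolic one-carbon enzyme, fell in all 3 lines (-1.17, -0.44 and -1.14). GDF15, a secreted stress cytokine, fell in Molm-14 (-1.93) and MV4-11 (-1.28) and was not called in SKNO-1, at 1.08 CPM with DMSO and 1.36 CPM with RMC-4550. In the covariate fit the MV4-11 counts called lower were 13 of 20 tRNA synthetases, 7 of 17 eIF2 genes, 4 of 22 unfolded protein response genes and 15 of 36 other amino acid genes, against 22.2% of genes.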

How the data were processed

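RNA-seq libraries of 3 cell lines in 6 groups of 3 were analysed, 18 in all. The authors deposited log2 CPM values (read counts scaled to a common library size) for 40184 gene IDs, and the submitters' processing notes name FastQC, STAR, limma and GRCh38. The annotation and the counting tool are not given in the sources used here. The deposited log2 values equal log2 of reads plus 0.5 over a scaled library total, and values of up to 20 reads came out whole within 0.1 read. Depth sets the precision of low genes, and reads are not independent molecules. Every column was matched to a sample.

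Genes that reached 1 CPM in 3 or more libraries were fitted with limma 3.58.1 (R 4.3.3) over all 18 libraries with 1 mean per group and a moderated, trended variance. Treatment was compared with DMSO within each line, and the 3 responses were compared with each other, with Benjamini-Hochberg adjustment over all genes tested and a threshold of 0.05. The limma tests are two-sided. Tables and plots used Python 3.11.15, numpy 2.4.6, pandas 2.3.3 and matplotlib 3.10.9, and the fits were tested on simulated data.

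The 37 genes and the lists were chosen with earlier results of these data known. Each of the 37 is named. Values by library are given for ATF4, DDIT3, ASNS, genes called in all 3 lines or in opposite directions, and the 3 largest called changes in each line, and some others were added after their values were seen. Up to 3 of the largest called changes and up to 3 genes called in all lines are named for each further list. Alternatives covered pseudocounts, filters, scaling, weights, a replicate block, the mitochondrial share and leaving out libraries. Counts over all genes under the mitochondrial settings were added after seeing the data.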

Additional observations from a re-analysis of the deposited data

Results flagged for a closer look

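Each result here is a gene whose response to RMC-4550 (log2 change against DMSO) differed between 2 lines in limma's test of the difference, at an adjusted p under 0.05. Between Molm-14 and MV4-11 these were 13 of 36 genes, against 19.4% of all genes tested. The transporter SLC7A1 had the largest difference, -1.77 (adjusted p = 0.0042), followed by ALDH1L2 at -1.18 (0.010), GPT2 at -1.05 (3.8e-05) and ALDH18A1 at -1.04 (0.00022). CTH was at -0.96 (0.037), PSAT1 at -0.90 (8.1e-05), PCK2 at -0.84 (0.016) and TRIB3 at -0.80 (0.045). ATF5 was at -0.78 (0.00071), ATF3 at -0.75 (0.016), SLC1A5 at -0.65 (0.00099) and MTHFD2 at -0.53 (0.047). PPP1R15A, at 0.44 (0.037), was the one gene with a higher response in Molm-14.

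Between SKNO-1 and Molm-14 there were 16 of 35 genes, against 10.9% of all genes tested. CHAC1 had the largest difference, 1.77 (limma adjusted p = 0.0025), followed by CTH at 1.62 (0.0022), ALDH1L2 at 1.49 (0.0025), ASNS at 1.41 (0.039) and TRIB3 at 1.38 (0.0029). SLC7A1 was at 1.17 (0.049), GPT2 at 1.03 (3.1e-05), PSAT1 at 1.03 (2.1e-05), PCK2 at 0.99 (0.0078), ATF3 at 0.91 (0.0071) and JDP2 at 0.89 (0.014). ATF5 was at 0.80 (0.00059), MTHFD2 at 0.74 (0.013), SLC1A5 at 0.65 (0.0010) and ALDH18A1 at 0.51 (0.029). SLC7A5, at -0.50 (0.041), was the one gene with a lower response in SKNO-1, and it was also lower there than in MV4-11, by -0.77 (0.010).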

How the results depend on the processing

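No gene called in a line in the analysis reported above changed sign under any alternative run. Of genes not called there, 9 in MV4-11 were called in both directions over the alternatives. Neither such calls nor the turned signs below were counted over all genes. The cause of the changes below was not tested. In Molm-14 the count called higher was 1 with a fold change of at least 1.5. Counts with this fold threshold were not made over all genes, here or below. In MV4-11 the count called higher was 2 with genes under a mean of 5 CPM left out (6.83% of all genes) or median-ratio scaling (6.91%). MV4-11 also had 2 with the replicate block (5.5%), voom weights (7.04%) or the mitochondrial covariate (12.1%), and 13 with array quality weights (27.7%). Its count called lower was 1 with separate fits per line (2.35%), 12 with array quality weights (25.2%), 25 with the covariate, 21 without the libraries over 10% and 3 with a fold change of at least 1.5. In SKNO-1 the counts higher and lower were 6 and 13 with separate fits (24.4% and 33.2%). They were 9 and 13 with array quality weights (25.6% and 35.0%). They were 7 and 13 without the libraries over 10% (21.2% and 32.0%) and 1 and 5 with the fold threshold. With the covariate 6 were higher (20% of all genes). The response differences between Molm-14 and MV4-11 numbered 30 with array quality weights (58.9%). Those between SKNO-1 and Molm-14 numbered 27 with array quality weights (36.8%), 26 with the covariate and 27 without the libraries over 10%. Those between SKNO-1 and MV4-11 numbered 2 with quantile normalization (2.05%), 17 with array quality weights (52.4%, so the listed genes were below the share of all genes), 10 with the covariate and 9 without the libraries over 10%.

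Leaving out each library in turn gave 3 to 4 genes higher and 25 to 30 lower in Molm-14. The shares of all genes were then 18.5% to 20% and 20.1% to 28.0%. In MV4-11 the counts were 1 to 2 and 5 to 7, against 3.12% to 9.71% and 5.00% to 10.9%. In SKNO-1 they were 2 and 5 to 6, against 7.01% to 7.965% and 12.1% to 13.7%. Response differences then numbered 8 to 27, 12 to 15 and 1 to 3. All genes had 10.4% to 43.9%, 7.17% to 11.5% and 1.12% to 6.31%. The replicate numbers did not pair the samples: same-numbered deviations correlated at -0.05, -0.04 and 0.00 in Molm-14, 0.39, 0.59 and -0.40 in MV4-11, and 0.13, 0.01 and 0.04 in SKNO-1, and 3 of 9 were highest with their own number. The replicate block gave 3 higher and 29 lower in Molm-14, against 22.4% and 27.25% of all genes. It gave 2 and 9 in MV4-11 (5.5% and 7.88%) and 3 and 8 in SKNO-1 (11.4% and 17.6%). Response differences numbered 15, 17 and 1, against 23.95%, 11.8% and 1.32%.

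The values with a turned sign belong to genes not called in that line in the analysis reported above, and to the SKNO-1 median of the listed genes, which was 0.0097 with median-ratio scaling and 0.026 with quantile normalization. With median-ratio scaling TRIB3 (0.024) and XPOT (0.018) turned in MV4-11, and MTHFD2 (0.0097) and DDIT4 (0.025) in SKNO-1. With quantile normalization TRIB3 (0.0092) and ATF4 (-0.014) turned in MV4-11, and MTHFD2 (0.042), CHAC1 (-0.052), DDIT4 (0.068) and DDIT3 (0.026) in SKNO-1. With array quality weights DDIT3 (-0.16) turned in Molm-14. In MV4-11 ASNS (0.13), PCK2 (0.12), TRIB3 (0.27), SLC1A4 (0.28), ATF4 (-0.052), SESN2 (0.40), SLC38A2 (0.22), ALDH1L2 (0.16), SLC7A1 (0.33), JDP2 (0.083), PSPH (0.00066), SHMT2 (0.21) and XPOT (0.21) did, of which TRIB3, SLC1A4, SESN2, SLC38A2, SLC7A1, SHMT2 and XPOT were called higher, and in SKNO-1 CHAC1 (-0.035) and SLC7A11 (-0.031). With the covariate DDIT3 (-0.20) turned in Molm-14, ATF3 (-0.016), DDIT4 (-0.18), DDIT3 (0.12) and PYCR1 (-0.29) in MV4-11, and DDIT4 (0.0055) in SKNO-1, and DDIT3 in Molm-14 and DDIT4 and PYCR1 in MV4-11 were then called lower. Without the libraries over 10% DDIT3 (-0.18) turned in Molm-14, and VLDLR (-0.13), ATF3 (-0.14), DDIT4 (-0.20), DDIT3 (0.18), PYCR1 (-0.21) and EIF4EBP1 (0.039) in MV4-11.

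Leaving out a library turned the sign of 13 genes in MV4-11. Their lowest and highest values were -0.24 and 0.071 for ALDH1L2, -0.39 and 0.10 for ASNS, -0.055 and 0.10 for ATF4, -0.20 and 0.058 for PCK2, -0.41 and 0.017 for PSPH, -0.093 and 0.28 for PYCR1, -0.28 and 0.27 for SESN2, -0.14 and 0.12 for SHMT2, -0.19 and 0.17 for SLC1A4, -0.19 and 0.18 for SLC38A2, -0.30 and 0.15 for SLC7A1, -0.13 and 0.15 for TRIB3, and -0.13 and 0.18 for XPOT. They were -0.18 and 0.26 for DDIT3 in Molm-14. In SKNO-1 they were -0.044 and 0.052 for CEBPG, -0.10 and 0.21 for CHAC1, -0.10 and 0.15 for CTH, -0.11 and 0.043 for DDIT4, and -0.0081 and 0.086 for SLC7A11. Depth limits ASNS, CHAC1, STC2 and NUPR1, the genes with the fewest reads.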
